A study of Rattus norvegicus with 16 samples.

Results

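The S100 proteins are small calcium-binding proteins of the EF-hand family, and 10 of their genes (*S100a1*, *S100a3*, *S100a4*, *S100a6*, *S100a8*, *S100a9*, *S100a10*, *S100a11*, *S100a13* and *S100b*) were followed here through early injury and treatment of the rat cornea. They were chosen by gene symbol, and each was read from the 1 probe set that carries its symbol alone, which gives 10 of 31042 probe sets and 10 of 14217 genes. In all, 17 symbols on the array begin with S100. RNA of 16 corneas was hybridised to 1 Affymetrix array each, with 4 corneas in each of 4 groups. All rats were male Wistar rats of 12 to 16 weeks. Naïve corneas had no suture and no drops. In the other groups the right cornea had received 2 sutures on its temporal side, which start an inflammatory growth of new vessels, and eye drops were given 4 times per day for 2 days, 8 drops in all. Tissue was taken at the end of these 2 days, when the paper saw no vessel sprouts yet. IgG treated corneas received goat IgG as the sham treatment, although the sample labels call it an anti-IgG antibody. Anti-*Vegf* treated corneas received an antibody against vascular endothelial growth factor, which the labels call specific for its A form and the methods a pan-*Vegf* antibody. The sample labels give both antibodies at 20 mg/ml, while the methods give µg/ml. The last group received dexamethasone, a synthetic glucocorticoid, at 1 mg/ml. The labels describe the tissue as the cornea without the scleral rim and the methods as its part between the sutures and the limbus. No sutured group without drops was among the samples, so the effect of the suture cannot be told apart from that of the drops in a comparison with naïve corneas.

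On binding calcium, an S100 dimer opens a surface that holds a target protein, so these proteins carry calcium signals to the cytoskeleton, to annexins at membranes and to enzymes. *S100a8* and *S100a9* form calprotectin, which neutrophils and monocytes hold in large amounts, and which injured squamous epithelium also makes. Released calprotectin binds zinc and manganese and acts on receptors such as Tlr4 and Ager. *S100b* is best known as a protein of glia, including the Schwann cells that accompany nerves.

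Values are log2 signals made by the RMA method, so that a difference of 1 is a doubling of signal, and a level of one gene cannot be set against that of another because probe sets differ in brightness. A call against naïve corneas needed a fold change of 1.5 or more and a Benjamini-Hochberg adjusted p from limma under 0.05, whereas calls between treatments rest on that p without a fold limit. The 3 comparisons with naïve corneas share the naïve arrays. *Krt12*, the keratin of the corneal epithelium, lay between 14.65 and 14.79 on all arrays, and *Lum*, which encodes lumican of the stroma, between 13.16 and 13.71. *Krt5* of the same list of cornea markers lay between 14.44 and 14.68. *Aldh3a1*, also listed, had 14.65 to 14.72 on the naïve and 14.20 to 14.49 on the sutured arrays. The signals of *Krt12*, *Krt5* and *Aldh3a1* are near the top of the scale, where small differences do not show that a gene kept its level. The poly-A control RNAs, which are added before labelling, had mean signals of 5.10 ± 0.11 (SD, n = 4) in the naïve and 5.17 ± 0.16 in the dexamethasone group, but 6.88 ± 0.12 in the anti-*Vegf* and 7.08 ± 0.27 in the IgG group. The log2 difference between the 5′ and 3′ control probe sets of the beta-actin transcript, a sign of RNA length, was −1.28 in the naïve, −1.17 in the dexamethasone, −0.87 in the anti-*Vegf* and −0.71 in the IgG group, higher in IgG than in naïve corneas by 0.58 and lower in dexamethasone than in IgG treated corneas by −0.46 (exact permutation test, two-sided, p = 0.0286 for each). The part of both measures in the results below was not tested. The 40th percentile of signal, used here as a limit for low signal, lay between 5.89 and 5.98 on the arrays, and the files give no detection calls, so a fold change from a naïve level near or below it depends on the background. In whole tissue, fewer cells of a type and less RNA per cell cannot be told apart.

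In every treatment *S100a8*, *S100a9*, *S100a4* and *S100a6* rose relative to naïve corneas, *S100b* fell, and *S100a10*, *S100a11* and *S100a13* had differences of at most 0.15 in size. In IgG treated corneas 4 of the 10 genes were called higher and 1 lower, where 6.32% of all genes were called higher and 5.02% lower. In anti-*Vegf* treated corneas 4 were called higher and 2 lower, against 6.82% and 5.94% of all genes. In dexamethasone treated corneas 4 were called higher and 1 lower, against 8.19% and 4.45% of all genes. The median difference over the 10 genes was 0.13, 0.18 and 0.20 in IgG, anti-*Vegf* and dexamethasone treated corneas, and that over all genes −0.01, −0.01 and 0.00. The plot of the 10 genes on each array shows the 4 groups side by side on 1 scale.

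**Figure D1:**
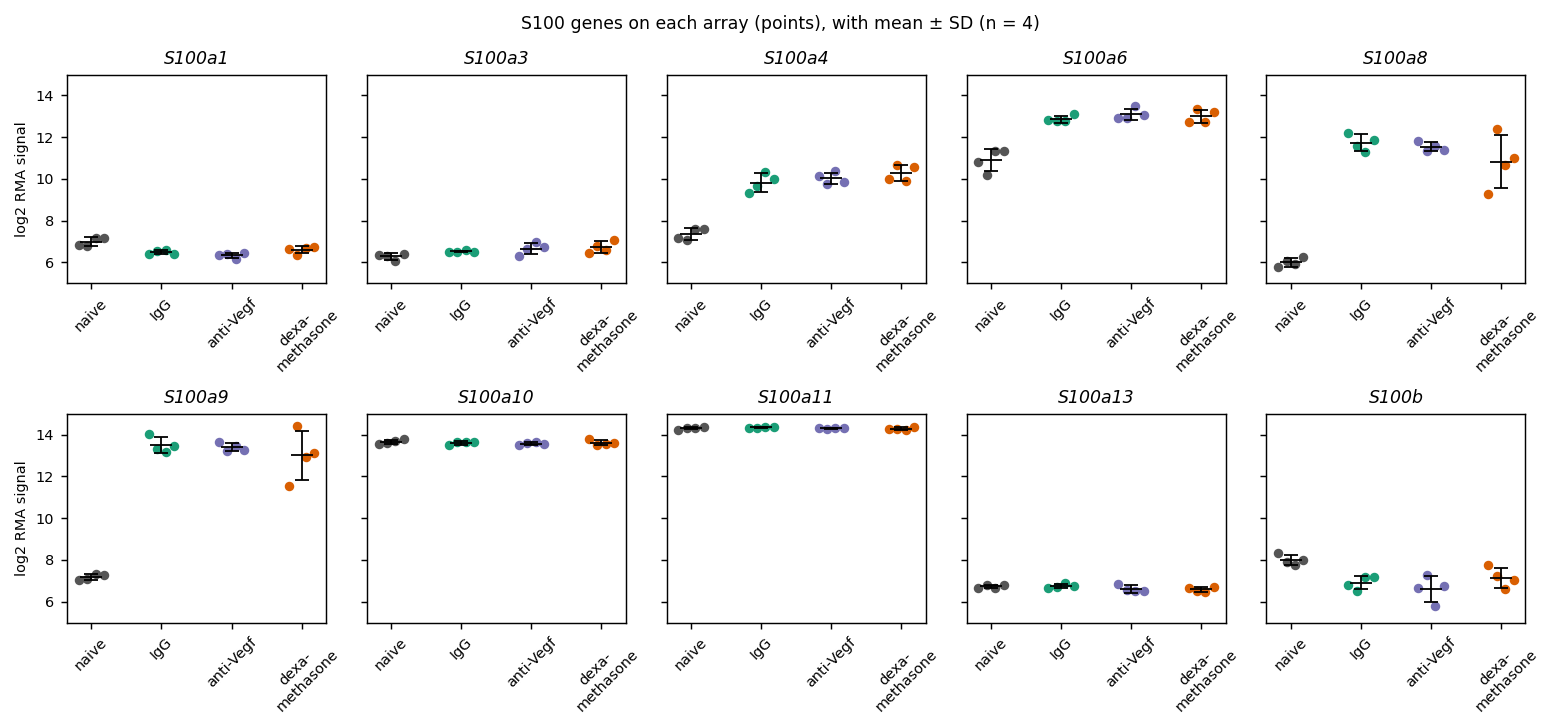
Log2 RMA signal (vertical axis) of the 10 S100 genes on each array, with 1 panel per gene and points for the 4 arrays of each group (naive, IgG, anti-Vegf, dexamethasone). Bars are the mean ± SD (n = 4). *S100a8* and *S100a9* show the widest gap between the naïve and the sutured groups, and the dexamethasone arrays are spread most for both.

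The calprotectin genes had the largest changes of the family. *S100a8* had log2 signals of 5.77, 6.05, 5.91 and 6.27 on the naïve arrays. It reached 12.22, 11.60, 11.27 and 11.88 with IgG and 11.81, 11.35, 11.60 and 11.39 with anti-*Vegf*. With dexamethasone it had 9.30 (F25), 12.37 (F26), 10.66 (F27) and 10.99 (F30). No sutured array overlapped the naïve arrays, and the dexamethasone group held both the lowest and the highest of the 12 sutured values. *S100a8* was 53.5-fold higher in IgG, 46.4-fold higher in anti-*Vegf* and 28.4-fold higher in dexamethasone treated corneas (log2 differences 5.74, 5.54 and 4.83, standard error 0.42, limma adjusted p = 1.739e-07, 2.285e-07 and 1.056e-06). Its naïve signal was near the low-signal limit, with 1 of 4 naïve arrays below it, so these folds carry the uncertainty of that level.

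*S100a9*, whose protein pairs with that of *S100a8*, had signals of 7.04, 7.07, 7.32 and 7.27 on the naïve arrays. The IgG arrays had 14.05, 13.32, 13.19 and 13.46 and the anti-*Vegf* arrays 13.67, 13.21, 13.44 and 13.29. The dexamethasone arrays had 11.55 (F25), 14.41 (F26), 12.95 (F27) and 13.11 (F30). Dexamethasone arrays F25 and F26 were again the lowest and the highest of the sutured arrays, and on its highest array *S100a9* lay only 0.36 below the brightest probe set. The log2 differences from naïve corneas were 6.33 with IgG, 6.23 with anti-*Vegf* and 5.83 with dexamethasone (standard error 0.39, limma adjusted p = 3.926e-08, 4.809e-08 and 5.962e-08). The SD of *S100a9* was 0.14 on the naïve, 0.38 on the IgG, 0.20 on the anti-*Vegf* and 1.17 on the dexamethasone arrays, and that of *S100a8* was 0.21, 0.41, 0.21 and 1.26 on the same groups. In deviations from the group means over the 12 sutured arrays, the pair had a Pearson correlation of 0.99, given as a description of arrays that each gene shares.

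The promoter of *S100a9*, shown because this gene had the largest rise of the family, is the 250 bases before its start in RefSeq (GRCr8, chr2:178490623-178490872, minus strand, written 5′ to 3′ along the gene). Capitals mark matches to 2 of 6 motifs searched on both strands, a C/EBP-type TTNNGNAA at 173 to 166 bases before the start, read on the opposite strand, and the TATA box TATAAA at 42 to 37 bases.
S100a9: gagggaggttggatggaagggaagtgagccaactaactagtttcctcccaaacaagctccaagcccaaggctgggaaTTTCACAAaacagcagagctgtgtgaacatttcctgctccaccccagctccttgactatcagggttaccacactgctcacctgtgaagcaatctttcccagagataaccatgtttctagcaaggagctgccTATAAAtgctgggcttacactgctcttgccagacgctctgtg
The 6 motifs were chosen after the signals had been seen. Of 27457 promoters of the same length, 36.8% hold TTNNGNAA and 13.1% hold TATAAA, so a match is a description of the letters only.

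*S100a9* was also set against *S100a8* on the same array. This measure was chosen after the values had been seen and is given as a description. Its level has no meaning across 2 probe sets, and *S100a8* lay near the low-signal limit on the naïve arrays while *S100a9* came near the brightest probe set on some sutured arrays. The signal of *S100a9* minus that of *S100a8* was 1.17 ± 0.20 (SD, n = 4) in naïve, 1.76 ± 0.15 in IgG treated, 1.86 ± 0.02 in anti-*Vegf* treated and 2.18 ± 0.12 in dexamethasone treated corneas. The 4 dexamethasone arrays lay between 2.04 and 2.29, above all IgG arrays (1.58 to 1.92) and all anti-*Vegf* arrays (1.84 to 1.90). The dexamethasone mean exceeded the IgG mean by 0.41 and the anti-*Vegf* mean by 0.31, and the means of the latter groups differed by 0.10. Against the naïve arrays the measure was higher by 0.59, 0.69 and 1.00 in IgG, anti-*Vegf* and dexamethasone treated corneas.

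**Figure D2:**
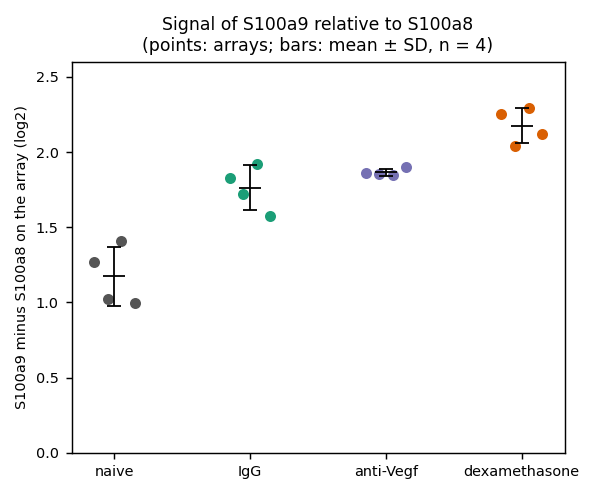
Log2 signal of *S100a9* minus that of *S100a8* on the same array (vertical axis), for the 4 groups. Points are arrays and bars the mean ± SD (n = 4), and the dexamethasone arrays (2.04 to 2.29) lie above those of every other group.

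*S100a4* encodes a protein that binds non-muscle myosin and is found in fibroblasts and leukocytes. Its signals were 7.16, 7.06, 7.59 and 7.62 on the naïve arrays. They rose to 9.32, 9.66, 10.34 and 9.99 on the IgG, to 10.13, 9.77, 10.37 and 9.86 on the anti-*Vegf* and to 10.02, 10.69, 9.89 and 10.56 on the dexamethasone arrays. The naïve arrays lay below all others, and the 3 treatments overlapped. *S100a4* was 5.53-fold higher in IgG, 6.38-fold higher in anti-*Vegf* and 7.63-fold higher in dexamethasone treated corneas (log2 differences 2.47, 2.67 and 2.93, standard error 0.22, limma adjusted p = 1.604e-06, 6.873e-07 and 2.934e-07).

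*S100a6*, or calcyclin, binds the calcyclin-binding protein and is abundant in epithelia and fibroblasts. Its signals were 10.82, 10.20, 11.33 and 11.32 on the naïve arrays. The IgG arrays had 12.80, 12.76, 12.77 and 13.11, the anti-*Vegf* arrays 12.90, 12.91, 13.50 and 13.06, and the dexamethasone arrays 12.72, 13.34, 12.75 and 13.18. All sutured arrays were above all naïve arrays, among which replicate 2 was lowest. *S100a6* was 3.84-fold higher in IgG, 4.5-fold higher in anti-*Vegf* and 4.22-fold higher in dexamethasone treated corneas (log2 differences 1.94, 2.17 and 2.08, standard error 0.22, limma adjusted p = 1.528e-05, 5.091e-06 and 8.344e-06).

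The promoters of both genes are printed for comparison with that of *S100a9*, since the 3 genes rose together (RefSeq, GRCr8, plus strand, chr2:178388279-178388528 for *S100a4* and chr2:178398287-178398536 for *S100a6*). Capitals mark TATAAA at 31 to 26 bases before the start of *S100a4* and the GC box GGGCGG at 80 to 75 bases before that of *S100a6*, which 32.4% of all promoters hold.
S100a4: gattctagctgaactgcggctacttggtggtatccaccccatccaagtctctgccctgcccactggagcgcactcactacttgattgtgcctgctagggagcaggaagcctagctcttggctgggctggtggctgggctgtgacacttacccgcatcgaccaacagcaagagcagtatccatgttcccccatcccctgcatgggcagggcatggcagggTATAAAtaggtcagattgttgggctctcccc
S100a6: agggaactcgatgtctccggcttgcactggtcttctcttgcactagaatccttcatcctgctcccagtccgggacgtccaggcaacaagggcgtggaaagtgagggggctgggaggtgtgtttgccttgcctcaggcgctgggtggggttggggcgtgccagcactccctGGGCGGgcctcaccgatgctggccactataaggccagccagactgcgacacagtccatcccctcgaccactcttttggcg
Neither held TTNNGNAA, and none of the 7 members with a promoter in the table held the AP-1 motif TGANTCA, the kappa B motif or the glucocorticoid receptor motif ACANNNTGT in this window, which 6.36%, 4.53% and 5.62% of all promoters hold. *S100a1*, *S100a8* and *S100a10* were not in the table. In the order of genes in RefSeq, 9 of the 10 members lie on chromosome 2, and *S100a4*, *S100a6*, *S100a8* and *S100a9* stand in that order in 1 cluster that also holds *S100a1*, *S100a13* and *S100a3*, while *S100a11* and *S100a10* lie apart from it beyond 55 protein-coding genes and *S100b* lies on chromosome 20.

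*S100b* moved the other way. Its signals were 8.33, 7.89, 7.74 and 7.98 on the naïve arrays. The IgG arrays had 6.79, 6.52, 7.17 and 7.19, the anti-*Vegf* arrays 6.67, 7.27, 5.78 and 6.74, and the dexamethasone arrays 7.76, 7.22, 6.62 and 7.02. Below all naïve arrays lay those of IgG and anti-*Vegf*, while dexamethasone array F25 reached into the naïve range. *S100b* was 2.10-fold lower in IgG, 2.59-fold lower in anti-*Vegf* and 1.78-fold lower in dexamethasone treated corneas (log2 differences −1.07, −1.37 and −0.83, standard error 0.28, limma adjusted p = 0.008664, 0.001532 and 0.03846). The call in dexamethasone treated corneas was lost in an ordinary t test without moderation of the spread (adjusted p = 0.08024). It was also lost when dexamethasone array F26, F27 or F30 or naïve array 1, 2 or 4 was left out (adjusted p = 0.06095 to 0.1233, limma).

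The promoter of *S100b*, printed as that of the member that fell (RefSeq, GRCr8, chr20:12381082-12381331, minus strand), held none of the 6 motifs and so has no capitals.
S100b: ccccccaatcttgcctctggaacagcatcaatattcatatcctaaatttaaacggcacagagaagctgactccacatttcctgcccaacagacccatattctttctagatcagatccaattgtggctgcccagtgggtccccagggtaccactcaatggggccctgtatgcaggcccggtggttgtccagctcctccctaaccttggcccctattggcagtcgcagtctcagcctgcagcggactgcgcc

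*S100a1*, a protein of heart and skeletal muscle that acts on calcium handling, was lower in all sutured groups by a smaller step. Its signals were 6.81, 6.80, 7.18 and 7.15 on the naïve arrays. They were 6.40, 6.55, 6.59 and 6.42 on the IgG, 6.37, 6.38, 6.18 and 6.43 on the anti-*Vegf* and 6.66, 6.36, 6.68 and 6.71 on the dexamethasone arrays. Every sutured array lay below every naïve array. The log2 difference was −0.65 in anti-*Vegf* treated corneas (1.57-fold lower, limma adjusted p = 0.000309), which was called, and without naïve array 3 it was −0.58 and under the fold limit. In IgG and in dexamethasone treated corneas it was −0.50 and −0.38 (adjusted p = 0.002488 and 0.01488, limma), both under the fold limit.

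The other 4 members were not called in any comparison. *S100a10*, which joins annexin A2 at the membrane, lay between 13.49 and 13.79 on all 16 arrays, 0.90 to 1.29 below the brightest probe set of the same array, with log2 differences from naïve corneas of −0.05, −0.09 and −0.05 (standard error 0.08). *S100a11*, a partner of annexin A1, lay between 14.22 and 14.39, with differences of 0.03, −0.01 and −0.03 (standard error 0.06). Signals of *S100a11* were 0.34 to 0.51 below the brightest probe set. So near the top of the scale, small differences do not show that either gene kept its level. *S100a13*, which takes part in the release of Fgf1, lay between 6.46 and 6.89, with differences of 0.02, −0.14 and −0.15 (standard error 0.09). *S100a3*, known from the hair cuticle, had 6.07 to 6.41 on the naïve, 6.50 to 6.58 on the IgG, 6.30 to 6.97 on the anti-*Vegf* and 6.43 to 7.08 on the dexamethasone arrays. Its differences were 0.24, 0.37 and 0.44 (standard error 0.14, limma adjusted p = 0.2361, 0.06491 and 0.03405), and the last was under the fold limit. Arrays did not overlap with the naïve arrays for 7 members with IgG, 6 with anti-*Vegf* and 6 with dexamethasone, against 31.3%, 31.3% and 28.3% of all genes.

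**Figure D3:**
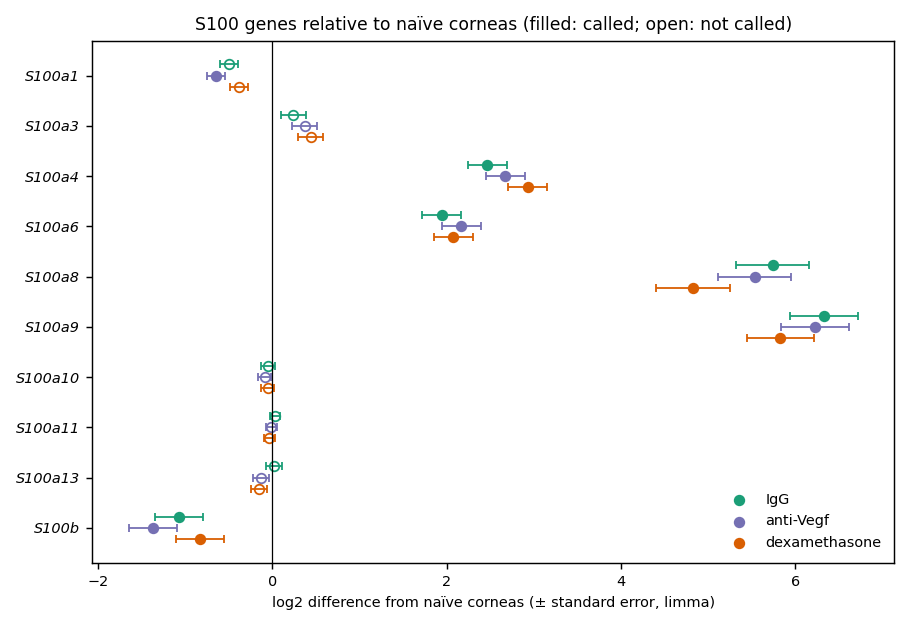
Log2 difference of each S100 gene from naïve corneas (horizontal axis) with its standard error from limma, in IgG, anti-Vegf and dexamethasone treated corneas. Filled points were called and open points were not, and *S100a8*, *S100a9*, *S100a4* and *S100a6* lie to the right of 0 in all 3 treatments while *S100b* lies to the left.

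Between the treatments, none of the 10 genes was called. Dexamethasone against IgG gave 0 members in either direction with limma and with an ordinary t test without moderation. With limma 7.41% of all genes were called higher and 3.16% lower, and 1 member had an unadjusted p under 0.05, as 25.4% of all genes had. Dexamethasone against anti-*Vegf* likewise gave 0 with both tests, against 4.63% and 2.5% of all genes, and 1 unadjusted, against 22.7%. Anti-*Vegf* against IgG gave 0 members called and 0 unadjusted, and 0% of all genes in each direction, although 6.63% of all genes had an unadjusted p under 0.05. *S100a8* was the member with an unadjusted p under 0.05 against IgG, with a log2 difference of −0.91 (limma adjusted p = 0.1908), and *S100a1* was that against anti-*Vegf*, with 0.26 (limma adjusted p = 0.1558).

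For *S100a8* the result turned on single dexamethasone arrays. Dexamethasone arrays F25, F27 and F30 lay below all IgG arrays and all anti-*Vegf* arrays, and F26 lay above them all. Without F26, *S100a8* was lower in dexamethasone than in IgG treated corneas by a log2 difference of −1.43 (limma adjusted p = 0.01403) and than in anti-*Vegf* treated corneas by −1.22 (adjusted p = 0.03787), and with it the latter was −0.71 (adjusted p = 0.3549). Without F25 the differences shrank to −0.40 and −0.20. *S100a9* had differences of −0.50 from IgG and −0.40 from anti-*Vegf* (adjusted p = 0.4617 and 0.6088, limma), and the former ranged from −0.97 without F26 to −0.016 without F25. *S100a4* was 0.46 above IgG in dexamethasone treated corneas (adjusted p = 0.2148, limma), with overlapping arrays. *S100b* was 0.54 above anti-*Vegf* (adjusted p = 0.2739, limma), also with overlap. In the order of the group means, IgG stood highest and naïve lowest for *S100a8* and *S100a9*, dexamethasone stood highest for *S100a4*, and anti-*Vegf* stood highest for *S100a6* and lowest for *S100b*, and none of the steps among the 3 treatments passed the test.

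The markers of leukocytes moved with the rising members. Of 12 neutrophil markers, 5 were called higher in each treatment and none lower (median 0.58, 0.35 and 0.46 in IgG, anti-*Vegf* and dexamethasone treated corneas). The shares of all genes called in these treatments were 6.32%, 6.82% and 8.19% higher and 5.02%, 5.94% and 4.45% lower. *Csf3r*, the receptor of the growth factor of neutrophils, was higher by 3.29, 2.89 and 3.26, *Itgb2*, an integrin chain of leukocytes, by 1.78, 1.58 and 1.82, and *Cxcr2*, a chemokine receptor, by 1.59, 1.31 and 1.00, each from naïve signals below the low-signal limit on all 4 arrays. *Lcn2* was higher by 1.52, 1.47 and 1.63 from a naïve mean of 11.60, well above that limit. Between treatments only *Cxcr4* was called, lower with dexamethasone by −0.72 than with IgG and by −0.75 than with anti-*Vegf* (limma adjusted p = 0.02354 and 0.02457). In these comparisons 3.16% and 2.5% of all genes were called lower. The granule genes *Camp*, *Mmp8*, *Np4* and *RatNP-3b* and the receptor gene *Cxcr1* never rose above the 40th percentile of signal, and were named after this was seen. The mean of the 12 markers lay between 5.53 and 5.61 on the naïve, 6.33 and 6.76 on the IgG, 6.34 and 6.43 on the anti-*Vegf* and 6.06 and 6.63 on the dexamethasone arrays. Its lowest and highest dexamethasone arrays were F25 and F26, as for *S100a8* and *S100a9*, and the same held for the means of the pan-leukocyte markers (7.23 and 7.99), the monocyte and macrophage markers (6.81 and 7.36) and the NADPH oxidase subunits (7.02 and 7.74). It also held for the keratocyte markers (10.54 and 10.85) and the cell surface receptors of S100 proteins (8.13 and 8.34). It did not hold for the other lists described below. Markers of antigen-presenting cells were highest on F30 (8.24), and genes of epithelial wounding and cornification were lowest on F27 (7.84) and highest on F30 (8.54). The part of these cells in the change of the calprotectin genes was not tested.

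**Figure D4:**
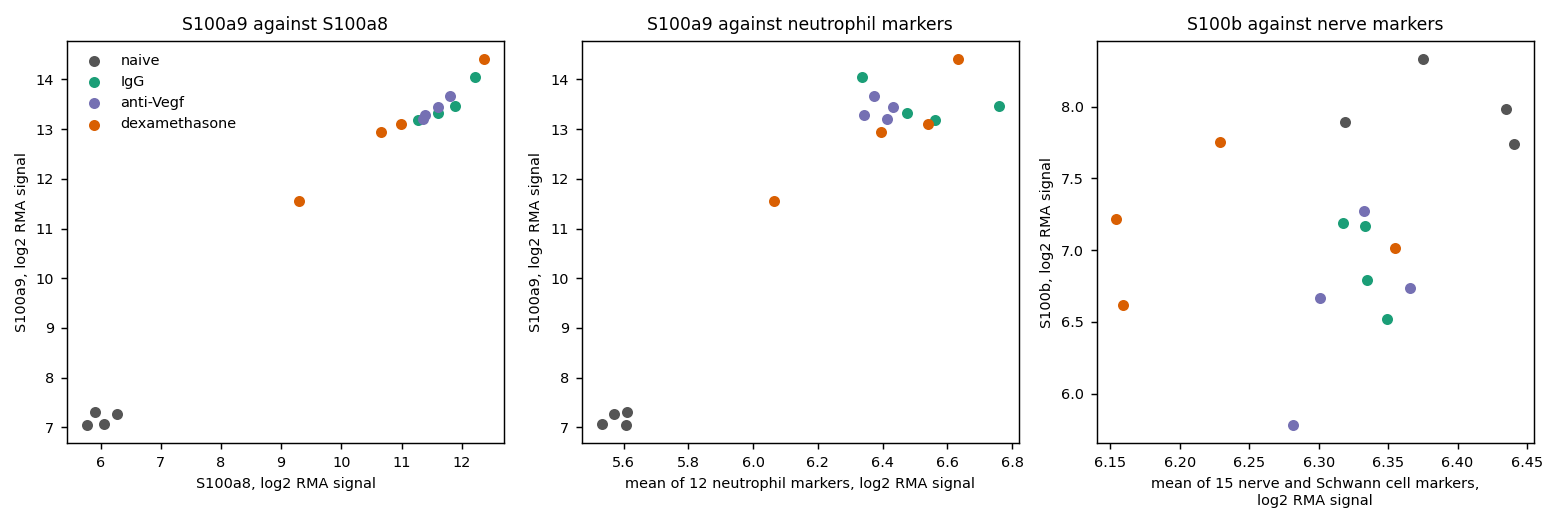
Log2 RMA signals of 16 arrays, coloured by group: *S100a9* against *S100a8*, *S100a9* against the mean of 12 neutrophil markers, and *S100b* against the mean of 15 nerve and Schwann cell markers. Naïve arrays stand apart in the first panels, and dexamethasone arrays F25 (lowest) and F26 (highest) bound the sutured arrays in *S100a9*.

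Of 14 monocyte and macrophage markers, 12, 11 and 10 were called higher in IgG, anti-*Vegf* and dexamethasone treated corneas (median 1.71, 1.43 and 1.25). Beside this list and the pan-leukocyte list, 6.32%, 6.82% and 8.19% of all genes were called higher. The largest measured differences were those of *Aif1* with 3.07, 3.15 and 3.01, *Mrc1*, the mannose receptor, with 2.68, 2.37 and 3.26, and *Lyz2*, a lysozyme, with 2.42, 2.45 and 3.14. The naïve signals of *Aif1* (mean 4.39) and *Mrc1* were below the low-signal limit on all 4 arrays. Relative to IgG, dexamethasone treated corneas had higher *Lyz2* by 0.72 (limma adjusted p = 0.02866) but lower *Ms4a7* and *Cd68*, by −1.22 and −0.86 (adjusted p = 0.009792 and 0.001538, limma). In that comparison 7.41% of all genes were called higher and 3.16% lower. On the dexamethasone arrays *Ms4a7* lay between 5.83 and 6.32, near the low-signal limit. Of 10 pan-leukocyte markers, 8, 8 and 7 were called higher (median 1.94, 1.75 and 1.70), led by *Cd53* with 3.82, 3.94 and 3.81 from naïve signals below the limit, and none was called between treatments. The part of these cells in the rise of *S100a4* and *S100a6* was not tested.

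Genes of epithelial wounding and cornification also moved. Of 18 genes, 12 were called higher with IgG, 12 with anti-*Vegf* and 7 with dexamethasone (median 1.41, 1.29 and 0.21), and 8 were lower in dexamethasone than in IgG and 8 lower than in anti-*Vegf* treated corneas. *Krt17*, a keratin of wounded epithelium, was higher by 5.69, 5.48 and 4.88, and *Serpinb2*, a protease inhibitor, by 5.86, 6.08 and 5.08 from a naïve mean of 2.86, far below the low-signal limit. *Sprr3*, a cornified envelope gene, was lower by −2.61 in dexamethasone than in IgG treated corneas (limma adjusted p = 0.002518). The part of the epithelium in the levels of *S100a8* and *S100a9* was likewise not tested.

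Nerve and Schwann cell markers moved in both directions. Of 15 measured, 2, 1 and 0 were called higher and 1, 1 and 1 lower in IgG, anti-*Vegf* and dexamethasone treated corneas (median 0.03, 0.01 and −0.05). The lower one was *Gap43*, a growth cone protein, with −1.27, −1.12 and −1.86. The higher ones were *Gfra3*, a receptor subunit of sensory neurons, with 0.65 in IgG and 0.68 in anti-*Vegf* treated corneas, and *Cadm4*, an adhesion molecule, with 0.59 in IgG treated corneas, whose naïve signals were below the low-signal limit on 4 and 3 of 4 arrays. Relative to IgG, dexamethasone treated corneas had 3 markers lower, among them *Cadm4* and *Gap43* by −0.88 and −0.59, and 1 higher, where 3.16% of all genes were called lower and 7.41% higher. On the dexamethasone arrays *Cadm4* lay between 5.14 and 5.59, below the low-signal limit. *Sox10*, the transcription factor of Schwann cells, had 0.08, 0.01 and −0.05 and was not called. The mean of the list lay between 6.32 and 6.44 on the naïve, 6.32 and 6.35 on the IgG, 6.28 and 6.37 on the anti-*Vegf* and 6.15 and 6.35 on the dexamethasone arrays. Pigment cells also make S100b. Of 7 pigment cell markers, 1 was called higher in IgG, *Tyrp1* with 1.31, and 1 lower with anti-*Vegf* and with dexamethasone, *Dct* with −1.25 and −1.29 (median 0.19, −0.16 and 0.01). The naïve signals of *Tyrp1* were below the low-signal limit on all 4 arrays. Beside both lists, the shares of all genes called in the 3 treatments were 6.32%, 6.82% and 8.19% higher and 5.02%, 5.94% and 4.45% lower. The part of either cell type in the fall of *S100b* was not tested.

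Of 21 measured intracellular partners of the S100 proteins, 3 were called higher and 1 lower in IgG treated corneas, and 2 higher and none lower in each of the others (median 0.11, 0.16 and 0.16). Over all genes, 6.32%, 6.82% and 8.19% were called higher and 5.02%, 5.94% and 4.45% lower in IgG, anti-*Vegf* and dexamethasone treated corneas. *Vim*, the intermediate filament of stromal cells and leukocytes that S100 proteins bind, was higher by 2.45, 2.24 and 2.61. *Atp2a2*, the calcium pump that S100a1 acts on, was higher by 0.79, 0.89 and 1.05 while *S100a1* was lower. *Fgf1*, released with S100a13, was lower by −0.77 in IgG treated corneas and higher by 0.51 in dexamethasone than in IgG treated corneas (limma adjusted p = 0.001596 and 0.04773). The annexin partners *Anxa1* and *Anxa2*, named after their values were seen, had differences of 0.13, 0.16 and 0.14 and of 0.06, 0.05 and 0.11 and were not called, as *S100a11* and *S100a10* were not. Signals lay between 14.21 and 14.48 for *Anxa1* and between 14.12 and 14.28 for *Anxa2*. So near the top of the scale, the small differences do not show that the annexin genes kept their level.

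Of 11 cell surface receptors of extracellular S100 proteins, 3, 5 and 4 were called higher in IgG, anti-*Vegf* and dexamethasone treated corneas and none lower (median 0.55, 0.20 and 0.26). Beside this list and the NADPH oxidase list below, 6.32%, 6.82% and 8.19% of all genes were called higher and 5.02%, 5.94% and 4.45% lower. *Tlr4*, a receptor of calprotectin, was higher by 1.30, 1.35 and 1.21, its co-receptor *Ly96* by 1.01, 1.09 and 0.76, and *Cd33*, a lectin that binds S100a9, by 1.51, 1.51 and 1.56 from naïve signals below the low-signal limit. *Ager*, the receptor for advanced glycation end products, named after its values were seen, had 0.02, −0.13 and −0.13 and was not called. *Cd36*, a scavenger receptor that takes up fatty acids, was the only receptor called between treatments, higher in dexamethasone than in IgG by 1.17 and than in anti-*Vegf* treated corneas by 0.86 (limma adjusted p = 0.000676 and 0.007314). In these comparisons 7.41% and 4.63% of all genes were called higher. The *Cd36* signals lay below the low-signal limit with IgG (4.35 to 4.96) and anti-*Vegf* (4.76 to 5.12). With dexamethasone they lay around that limit (5.53 to 6.11), so the size of both differences depends on the background. Calprotectin also delivers arachidonic acid to the NADPH oxidase of phagocytes, and 4 of its 5 measured subunits were called higher in each treatment (median 1.13, 1.02 and 1.06). *Cybb*, the catalytic subunit, was higher by 1.93, 2.15 and 2.33, from naïve signals below the low-signal limit on 3 of 4 arrays.

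For each strongly rising member, the genes with the closest change from naïve corneas were found. The measure was the root mean square difference of log2 signal, less each gene's naïve mean, over the 12 sutured arrays. It counts a constant gap in the size of the rise, so it does not rank genes by how they vary together over the arrays. *S100a8* and *S100a9*, for example, had a correlation of 0.99 in deviations from the group means. For *S100a8* the nearest genes by this measure were *Krt17* (0.626), *S100a9* (0.787) and *Mmp3* (0.795). *S100a9* stood nearest to *Mmp3* (0.636), *S100a8* (0.787) and *Ccl2* (0.821). For *S100a4* they were *Il1rl1* (0.223), *Lyz2* (0.297) and *Ms4a6bl1* (0.375), and for *S100a6* *Arpc1b* (0.191), *Ifngr1* (0.246) and *Zdhhc14* (0.259).

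Outside the 10 members, 0 of 5 further S100 and fused-type S100 genes were called in any comparison (median 0.28, 0.19 and 0.06 against naïve corneas, and 2, 1 and 2 at an unadjusted p under 0.05). Of all genes, 40.4%, 41.2% and 39.3% had an unadjusted p under 0.05 in the same comparisons. *S100a5* and *Tchh*, among the 5, never rose above the 40th percentile of signal. *S100a14*, an epithelial member, had differences of 0.37, 0.37 and 0.29 (limma adjusted p = 0.01884, 0.01969 and 0.06793), all under the fold limit. *S100g* had 0.30, −1.05 and −0.16 with a standard error of 0.58, and *S100pbp*, which encodes a binding protein, −0.43, −0.48 and −0.39 (limma adjusted p = 0.007008, 0.003509 and 0.01532), under the fold limit. *S100a5*, *Tchh*, *S100a14*, *S100g* and *S100pbp* were named after their values were seen, and *S100a7l2* and *S100vp* were not called either.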

How the data were processed

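Total RNA of 16 corneas was measured on Affymetrix arrays, 1 array per cornea. The authors corrected the scans for background, normalized them and deposited log2 values per probe set, made per the labels with RMA in Affymetrix Expression Console. No value was transformed further, and 0 sample columns were left out. Of 31099 probe sets, 57 controls were set aside, and 20826 of the rest carry 1 gene symbol, 436 several and 9780 none. Medians of arrays lay between 6.551 and 6.618. The number of arrays limits the precision. The p-values set a difference between group means against the spread among arrays of a group, 1 per cornea. They do not cover processing that differed between whole groups.

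limma 3.58.1 in R 4.3.3 was fitted to 31042 probe sets with a mean for each group (12 residual degrees of freedom) and empirical Bayes moderation, with Benjamini-Hochberg adjustment over all of them. A gene was read from its probe set with the highest mean signal. Each member has 1 probe set, and all 10 passed a filter on low values (above the 40th percentile on at least 4 arrays). Controls were compared by exact permutation tests, two-sided. The fit was tested on simulated data. The members and the lists of partners, receptors, subunits and markers, written from general knowledge, were chosen with earlier results of these data known. Named are all members, up to 3 of the largest called genes of a list per comparison, and the 3 genes nearest to each member with a log2 difference of at least 2. *Krt12*, *Krt5*, *Lum*, *Aldh3a1* and *Sox10* come from the list of cell type markers, and other names were chosen after their values were seen. Alternatives were other moderation, fits of 2 groups, array weights, centring on reference genes, cyclic loess, the filter, Storey's q-value, other fold limits and leaving out each array. Python 3.11.15, pandas 2.3.3, scipy 1.17.1 and matplotlib 3.10.9 were used. Protein and microscopy data were not analysed here.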

Additional observations from a re-analysis of the deposited data

Results flagged for a closer look

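In 5 of 40 sets of 4 arrays, 1 per member and group, an array stood far from the other 3, where chance alone gives about 5% of sets. These were *S100a1* on dexamethasone array F26 (6.36, lowest of its group), *S100a3* on IgG array F22 (6.58, highest), *S100a6* on IgG array F23 (13.11, highest), *S100a10* on IgG array F17 (13.49, lowest) and *S100a13* on anti-*Vegf* array F1x (6.87, highest). The wide *S100a8* and *S100a9* signals of the dexamethasone arrays were not among them.

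The poly-A controls, which are not part of the comparisons of genes, were above the level of the naïve arrays by 1.98 on the IgG arrays and by 1.78 on the anti-*Vegf* arrays (exact permutation test, two-sided, p = 0.0286 for each). On the dexamethasone arrays they were 0.07 above that level (p = 0.543, exact).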

How the results depend on the processing

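Each of 60 results (10 members, 6 comparisons) was recomputed under 25 other settings. In 53 the call was the same in all of them. Of 16 called results, 14 kept their call in every setting and 0 changed sign. The count of members called lower went to 2 in IgG and to 2 in dexamethasone treated corneas with no fold limit, where the count called higher in the latter went from 4 to 5. The count called lower went to 0 in dexamethasone treated corneas with the ordinary t test. Leaving out 1 array at a time, the count called lower ranged from 1 to 2 in anti-*Vegf* and from 0 to 1 in dexamethasone treated corneas. The lower value came without naïve array 3 for the former, and without dexamethasone array F26, F27 or F30 or naïve array 1, 2 or 4 for the latter. It ranged from 0 to 1 in dexamethasone against IgG and against anti-*Vegf*, with 1 only without dexamethasone array F26. Of uncalled results, 11 changed sign under some setting. With cyclic loess these were *S100a11* in IgG against naïve (−0.037), *S100a10* in dexamethasone against IgG (0.025) and *S100a11* in dexamethasone against anti-*Vegf* (0.044). With centring on reference genes, of which 6 of 10 were on the array with 1 symbol, they were *S100a11* (−0.0061) and *S100a13* (−0.021) in IgG against naïve. With 1 array left out, the log2 differences ranged from −0.0018 to 0.053 for *S100a11* and −0.032 to 0.044 for *S100a13* in IgG against naïve, −0.045 to 0.0090 for *S100a11* in anti-*Vegf* against naïve, −0.059 to 0.030 for *S100a10* in dexamethasone against IgG, and −0.21 to 0.078 for *S100a9* in anti-*Vegf* against IgG. In dexamethasone against anti-*Vegf* they ranged from −0.022 to 0.067 for *S100a10*, −0.048 to 0.0008 for *S100a11*, −0.054 to 0.072 for *S100a13*, −0.051 to 0.17 for *S100a3*, −0.21 to 0.044 for *S100a6* and −0.86 to 0.089 for *S100a9*. The cause of these changes was not tested. Averaging probe sets gave no other value, since each member has 1. The difference of *S100a9* and *S100a8* between dexamethasone and IgG or anti-*Vegf* kept its sign under array weights, cyclic loess and each array left out, the settings that can change it, which were chosen after the data had been seen. No paired analysis was possible because the groups share no replicate numbers.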

Other observations

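Markers of the cornea's own cells moved in both directions. For the lists of this paragraph, the shares of all genes called with IgG, anti-*Vegf* and dexamethasone were 6.32%, 6.82% and 8.19% higher and 5.02%, 5.94% and 4.45% lower. Of 7 corneal endothelium markers, 4 were called lower with IgG, 5 with anti-*Vegf* and 2 with dexamethasone (median −1.21, −1.16 and −0.46). *Cdh2*, the cadherin of that layer, had log2 differences of −1.62, −1.56 and −0.46, and was higher by 1.16 in dexamethasone than in IgG treated corneas (limma adjusted p = 0.024). Of 9 keratocyte markers, 2 were called higher in each treatment and 2, 4 and 2 lower (median −0.21, −0.24 and −0.05). *Col5a1*, a collagen of the stroma, had −0.76, −1.55 and −0.71, and *Pdgfra*, a growth factor receptor, 1.48, 1.37 and 1.88. Of 10 corneal epithelium markers, 2 were called higher in each treatment and none lower (median −0.08, −0.10 and −0.14). They were *Clu*, a secreted chaperone, with 3.86, 3.29 and 3.50, and *Krt14*, a basal keratin, with 1.62, 1.69 and 1.55. Of 8 markers of antigen-presenting cells, 5 were called higher and 1 lower in each treatment (median 1.21, 1.59 and 1.2), with *Cd74*, the invariant chain, at 2.88, 2.64 and 2.42.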
